A study of Mus musculus with 4 samples.

Results

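Genes of neural progenitor cells, of the path from progenitor to young neuron, and of cell division were examined in the brain cortex of aged SAMP8 mice given TCQA or water. The members were chosen by name: 33 genes known from neurogenesis were listed, and 31 of them had a probe set with that symbol on the array, out of 22206 gene probe sets in all. Neurod1 and Ccnd1 had no named probe set here and were not analysed. Each of the 31 genes had 1 probe set. By role they comprised 9 progenitor genes, 3 proneural genes, 13 genes of immature neurons and 6 genes of proliferation. SAMP8 mice are an inbred model of accelerated ageing, in which memory declines early. All mice were males, kept singly from 7 months of age. From 11 months of age the treated group took 5 mg/kg TCQA by mouth each day for 1 month, and the control group took purified water over the same month. Each group had 2 Clariom S arrays of total cortex RNA. No young mice and no other strain were compared, so every value belongs to this aged strain. TCQA is known here by its abbreviation.

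In the adult brain, new neurons arise mainly in the subventricular zone, whose neuroblasts migrate to the olfactory bulb, and in the dentate gyrus of the hippocampus. Stem cells there resemble astrocytes and express Sox2, nestin and Fabp7. They give rise to dividing intermediate progenitors under proneural transcription factors, and these become neuroblasts that express doublecortin and other cytoskeletal proteins of growing neurites. The cortex itself is not a classical neurogenic site, and many of these genes are also read by its resident cells. Sox2, Msi2 and Fabp7 are expressed by astrocytes, and Tubb3, Stmn1, Ncam1 and Elavl4 by mature neurons.

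The values are log2 signals, on which a difference of 1 is a 2-fold change. A signal can be compared between arrays for the same gene. Order of signal between genes served only to mark or filter dim genes and to pick bright markers as examples. Summed signals of marker lists weight their brightest genes most. Dim genes were marked by the median signal of the 5222 negative control probe sets, which lay between 7.17 and 7.32 on the 4 arrays. This mark was close to the median gene signal, 7.12 to 7.17. Of all 22206 gene probe sets 10642 were below it on every array, as were 13 of the 31 members. A gene called dim here is thus in the lower part of the array and not shown to be silent. The tissue label was checked on marker lists. All 7 measured markers of excitatory cortical neurons and all 8 of astrocytes lay above that median on every array, among them the vesicular glutamate transporter gene Slc17a7, with array values between 16.03 and 16.68. Ttr, a choroid plexus gene, ran from 7.49 in control replicate 1 to 16.42 in control replicate 2, with 12.23 and 14.97 in the TCQA arrays. The log2 summed signal of the 9 choroid plexus markers measured ran from 9.72 to 16.45 on the same 2 control arrays. In control replicate 2 that sum was nearly all Ttr, so it does not add to the Ttr values. The next brightest marker, Clic6, was at 7.89 and 9.47 in the control arrays and at 8.46 and 9.59 in the TCQA arrays. The arrays correlated across genes at 0.991 to 0.993.

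By sign, the neurogenesis genes were evenly split between the groups. Of the 31, 16 had a higher mean with TCQA and 15 a lower one, a share of 51.6% higher against 51.1% of all gene probe sets. Their median difference, TCQA minus control, was 0.01, as it was over all genes. The median size of a difference was 0.15 against 0.17 over all genes. The gap between the 2 TCQA arrays had a median of 0.25 over the members and that between the 2 control arrays one of 0.19.

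In limma's moderated test no member passed with Benjamini-Hochberg adjustment over all genes, and the smallest adjusted p of a member was 0.788. At an unadjusted p under 0.05 there was 1 of 31 (3.23%), the fatty acid binding protein gene Fabp7, which was higher. Of all gene probe sets 6.24% reached it, 3.38% higher and 2.86% lower. The depositors' criterion, which asks in addition for more than a 2-fold change, was met by 0 of 31 members and by 0.374% of all probe sets. In 8 of the 31 genes (25.8%) both TCQA arrays lay on one side of both control arrays, 6 higher and 2 lower. Over all probe sets 36.6% were so separated, 18.9% higher and 17.8% lower. Of the members 19.4% were so separated upwards, close to the share of the array as a whole. The 95% confidence interval of the difference lay within a 2-fold change either way for 27 members. For Nes, Fabp7, Igfbpl1 and Cd24a it reached past a 2-fold rise, and for none of the 31 past a 2-fold fall.

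**Figure D1:**
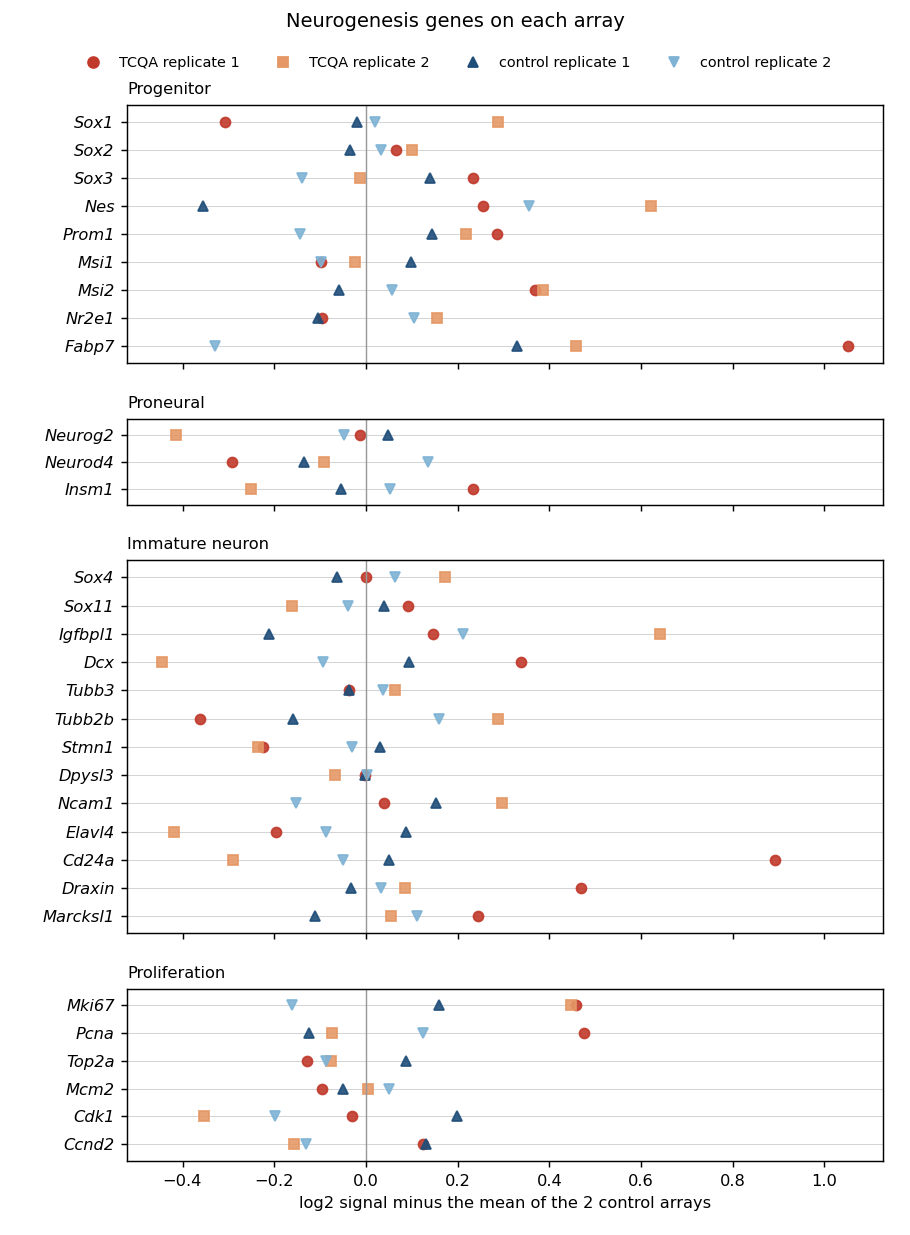
Log2 signal of the 31 neurogenesis genes on each of the 4 arrays, minus the mean of the 2 control arrays of the same gene, in panels by role. Fabp7 and Cd24a in TCQA replicate 1 lie farthest to the right, and for 23 genes the TCQA and control arrays overlap.

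Of the 9 progenitor genes, 7 (77.8%) had a higher mean with TCQA, against 51.1% of all gene probe sets, with a median difference of 0.11 and a range of -0.06 to 0.76. The arrays of the groups did not overlap for 4 (44.4%, against 36.6% of all), with Sox2, Prom1, Msi2 and Fabp7 each higher with TCQA. Only Fabp7 among the 9 had an unadjusted p under 0.05, and no test was made of the 9 genes together. In bulk tissue, a change in the number of cells of a type and a change in RNA per cell cannot be told apart. Sox3 and Nes were below the median negative control on all arrays.

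The transcription factors that keep neural stem cells undifferentiated were close between groups. Sox2, which maintains stem cell identity and is also read by astrocytes, was at 10.47 and 10.50 in the TCQA arrays and at 10.37 and 10.43 in the control arrays. All 4 values lay within a narrow band, and the 2 TCQA arrays were just above the controls. The groups differed by 0.08, with a 95% confidence interval of -0.33 to 0.50 and a limma adjusted p of 0.953. Sox1, of the same SoxB1 subfamily, was the lowest in TCQA replicate 1 at 8.43 and the highest in TCQA replicate 2 at 9.02, with both controls between at 8.72 and 8.76. Its difference was -0.01 (SE 0.24), which averages a gap of opposite signs. Nr2e1, the nuclear receptor Tlx of adult stem cells, differed by 0.03 (SE 0.19), and Sox3 by 0.11 (SE 0.20) at a very dim level.

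Nestin and prominin are structural markers of progenitors. Nes, the intermediate filament nestin, was at 5.14 and 5.505 with TCQA and at 4.53 and 5.24 in control. Control replicate 1 was the low array, and control replicate 2 lay between the TCQA arrays, so the groups overlapped. The difference was 0.44 (95% confidence interval -0.25 to 1.13). Leaving out control replicate 2 gave 0.79, and leaving out control replicate 1 gave 0.08. Prom1, the membrane glycoprotein CD133, was at 9.04 and 8.98 with TCQA and at 8.90 and 8.61 in control. Both TCQA arrays were above both controls, but the group difference of 0.25 (SE 0.19) was smaller than the gap between the control arrays.

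The RNA-binding Musashi proteins regulate translation in progenitors. Msi2 was at 12.70 and 12.71 in the TCQA arrays and at 12.27 and 12.38 in the control arrays. The TCQA pair nearly coincided, and the groups differed by 0.38, more than the gap within either pair, with a 95% confidence interval of -0.04 to 0.80 and a limma adjusted p of 0.799. Without any one array it was between 0.32 and 0.44. For Msi1 the difference was -0.06 (SE 0.18), and control replicate 1 was its highest array.

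Fabp7, the brain lipid binding protein of radial glia and astrocytes, had the largest difference of the members. Its log2 signal was 14.51 and 13.91 with TCQA and 13.78 and 13.13 in control. The 4 arrays were spread out, with TCQA replicate 1 highest, control replicate 2 lowest, and TCQA replicate 2 only just above control replicate 1. The difference was 0.76 (SE 0.30, 95% confidence interval 0.02 to 1.49, limma adjusted p = 0.788), a 1.69-fold higher level. Leaving out TCQA replicate 1 lowered it to 0.46 and leaving out control replicate 2 to 0.43, and in both cases the unadjusted p was no longer under 0.05. Leaving out either of the other two arrays raised it, to 1.05 and 1.08. Astrocyte markers, read beside it because these cells express the gene, had a higher mean with TCQA in 6 of 8, with a median difference of 0.21 and 0 of 8 at an unadjusted p under 0.05. The log2 of their summed signal was 18.11 and 18.33 in the TCQA arrays and 18.21 and 18.00 in the control arrays, and none of the 8 was below the median negative control on any array. Their part in the Fabp7 difference was not tested.

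Fabp7 is a known target of Notch signalling, whose effector RBPJ binds the letters TGGGAA. The 250 bases before its start in RefSeq (GRCm38.p6, chr10:57784673-57784922, plus strand) are shown because it was the member with the largest difference, with the match to these letters, on either strand, in capitals.
Fabp7: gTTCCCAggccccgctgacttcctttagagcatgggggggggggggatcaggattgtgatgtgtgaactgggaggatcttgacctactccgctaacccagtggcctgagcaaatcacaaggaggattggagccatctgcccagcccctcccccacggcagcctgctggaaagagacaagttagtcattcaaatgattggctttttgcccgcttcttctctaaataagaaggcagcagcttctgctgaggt
The window held 1 match, and 21.6% of the 32851 promoters of that table held at least 1 in the same window. The match is a description of the letters and not a binding site.

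The proneural genes were dim. Neurog2, Neurod4 and Insm1, which drive progenitors toward neuronal fate, lay below the median negative control on all 4 arrays. All 3 had a lower mean with TCQA, by between -0.21 and -0.01, and the arrays overlapped for each. Neurog2 was at 5.38 and 4.98 with TCQA and at 5.44 and 5.35 in control, a difference of -0.21 (SE 0.21). It was the low value of TCQA replicate 2 that set this difference, since TCQA replicate 1 lay between the controls and without replicate 2 the difference was -0.01. Neurod4 differed by -0.19 (SE 0.20) and Insm1, a zinc finger factor of intermediate progenitors, by -0.01 (SE 0.22).

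The genes of immature neurons went both ways. Of the 13, 7 had a higher mean with TCQA and 6 a lower one, with a median difference of 0.01 and a range of -0.31 to 0.39, and 0 of 13 had an unadjusted p under 0.05 in limma. The arrays of the groups were apart for 3 (23.1%, against 36.6% of all gene probe sets): Draxin higher, Stmn1 and Elavl4 lower.

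Doublecortin and the neuronal tubulins build the microtubules of young neurites. Dcx, the standard marker of neuroblasts, was at 10.82 and 10.04 with TCQA and at 10.58 and 10.39 in control. The TCQA arrays were the highest and the lowest of the 4, with both controls between them. The difference was -0.05 (95% confidence interval -0.74 to 0.64, limma adjusted p = 0.985), a range that runs from 0.597 to 1.55 times the control level. Tubb3, the class III beta-tubulin of all neurons, was at 13.25 and 13.35 with TCQA and at 13.25 and 13.32 in control. The 2 pairs lay on top of each other, with a difference of 0.01 (95% confidence interval -0.41 to 0.43), and after quantile normalization its sign turned. Tubb2b, whose sequence is close to that of Tubb2a so that probes may be shared, differed by -0.04 (SE 0.27), with TCQA replicate 1 lowest and TCQA replicate 2 highest.

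Stathmin and the RNA-binding protein HuD stay on in mature neurons. Stmn1, which destabilises microtubules, was at 15.92 and 15.91 with TCQA and at 16.18 and 16.11 in control. Both pairs were tight and did not overlap. The groups differed by -0.23, with a 95% confidence interval of -0.64 to 0.18 and a limma adjusted p of 0.850. Elavl4, which encodes HuD, was at 11.78 and 11.55 with TCQA and at 12.06 and 11.89 in control, a difference of -0.31 (SE 0.19) with both TCQA arrays below the controls. Without any one array the Stmn1 difference was between -0.26 and -0.20 and that of Elavl4 between -0.42 and -0.20. Ncam1, the neural cell adhesion molecule, differed by 0.17 (SE 0.20), with its arrays overlapping.

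The remaining genes of this group include the SoxC factors, which switch on neuronal genes in newborn neurons. Sox11 differed by -0.03 (SE 0.19) and Sox4, at a dim level, by 0.09 (SE 0.18). Dpysl3, a cytosolic protein of growth cones, differed by -0.03 (SE 0.17), and Marcksl1, an actin-regulating protein, by 0.15 (SE 0.19) at a dim level. Igfbpl1, a marker of neuroblasts, was below the median negative control and differed by 0.39 (SE 0.25), with TCQA replicate 2 highest and control replicate 1 lowest. Draxin, an axon guidance protein, was also dim, at 4.62 and 4.23 with TCQA and at 4.12 and 4.18 in control. TCQA replicate 1 stood above the other 3 arrays, and without it the difference of 0.28 (SE 0.20) was 0.08.

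**Figure D2:**
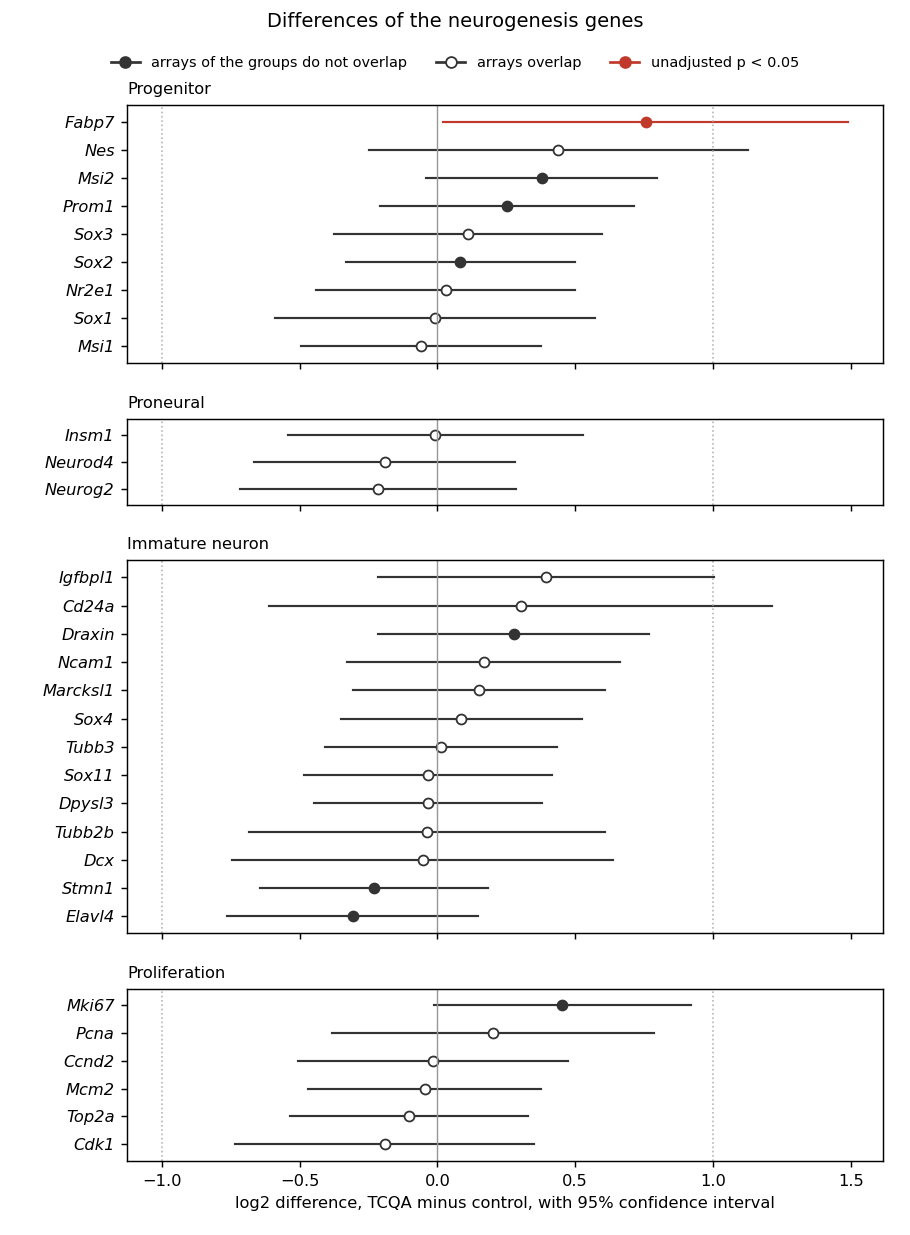
Log2 difference of each neurogenesis gene, TCQA minus control, with the 95% confidence interval of the limma fit, ordered by size within each role; dotted lines mark a 2-fold change. The interval of Fabp7, 0.02 to 1.49, is the one that does not include 0.

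The TCQA arrays differed from each other in Cd24a and Dcx. Cd24a, a surface protein of neuroblasts and ependymal cells, was at 7.76 and 6.58 with TCQA and at 6.92 and 6.82 in control. It was above the median negative control on 1 array only, TCQA replicate 1. TCQA replicate 1 was far above both controls and TCQA replicate 2 below them. The difference was 0.30 (95% confidence interval -0.61 to 1.22), turned to -0.29 without TCQA replicate 1 and was 0.89 without TCQA replicate 2. Dcx turned in the same way, to -0.45 without TCQA replicate 1 and 0.34 without TCQA replicate 2. TCQA replicate 1 was the highest and TCQA replicate 2 the lowest array for 4 of the 16 proneural and immature neuron genes (Dcx, Cd24a, Sox11 and Insm1, named after their values were seen). Over all 31 members these 4 (12.9%) had that order, against 8.24% of all gene probe sets. Dcx and Cd24a, in which the gap was described first, are themselves in the count. The immature neuron genes did not share a single order: of the 13, 5 were highest in TCQA replicate 1 and 5 in TCQA replicate 2, Igfbpl1 and Tubb2b among the latter. The lowest array was TCQA replicate 2 for 6 of the 13 and TCQA replicate 1 for 1, Tubb2b.

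Markers of the olfactory bulb or of subventricular neuroblasts were mostly highest in TCQA replicate 1. The list mixes genes of the olfactory bulb with those of neuroblasts, so it does not single out new neurons. Of 9 measured, 8 were highest in that array, as were 5864 of all 22206 gene probe sets. Of the 9, 5 (55.6%) were also lowest in TCQA replicate 2, against 8.24% of all gene probe sets. The log2 of their summed signal was 11.57 in TCQA replicate 1, against 10.18 in TCQA replicate 2 and 10.47 and 10.37 in the control arrays. Dlx1, a homeobox gene of inhibitory neuron lineages, was at 9.71 in TCQA replicate 1 and between 8.52 and 8.77 in the other 3 arrays. Dlx5, of the same family, was at 8.55 in TCQA replicate 1, at 7.70 in TCQA replicate 2 and at 7.69 and 8.22 in the controls. Eomes, a factor of intermediate progenitors and of olfactory bulb projection neurons, was at 7.87 in TCQA replicate 1, at 4.62 in TCQA replicate 2 and at 5.36 in both controls, and was named after its values were seen. Only in TCQA replicate 1 was Eomes above the median negative control. None of the 9 had an unadjusted p under 0.05 in limma (0 of 9), and 3 of the 9 were below the median negative control on all arrays. Ependymal markers, which could carry Cd24a and Prom1, had a log2 summed signal of 9.10 and 8.60 with TCQA and 8.74 and 8.82 in control, and 0 of the 7 was above the median negative control on all arrays. The part of olfactory bulb, neuroblast or ependymal RNA in the values of Dcx and Cd24a was not tested.

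**Figure D3:**
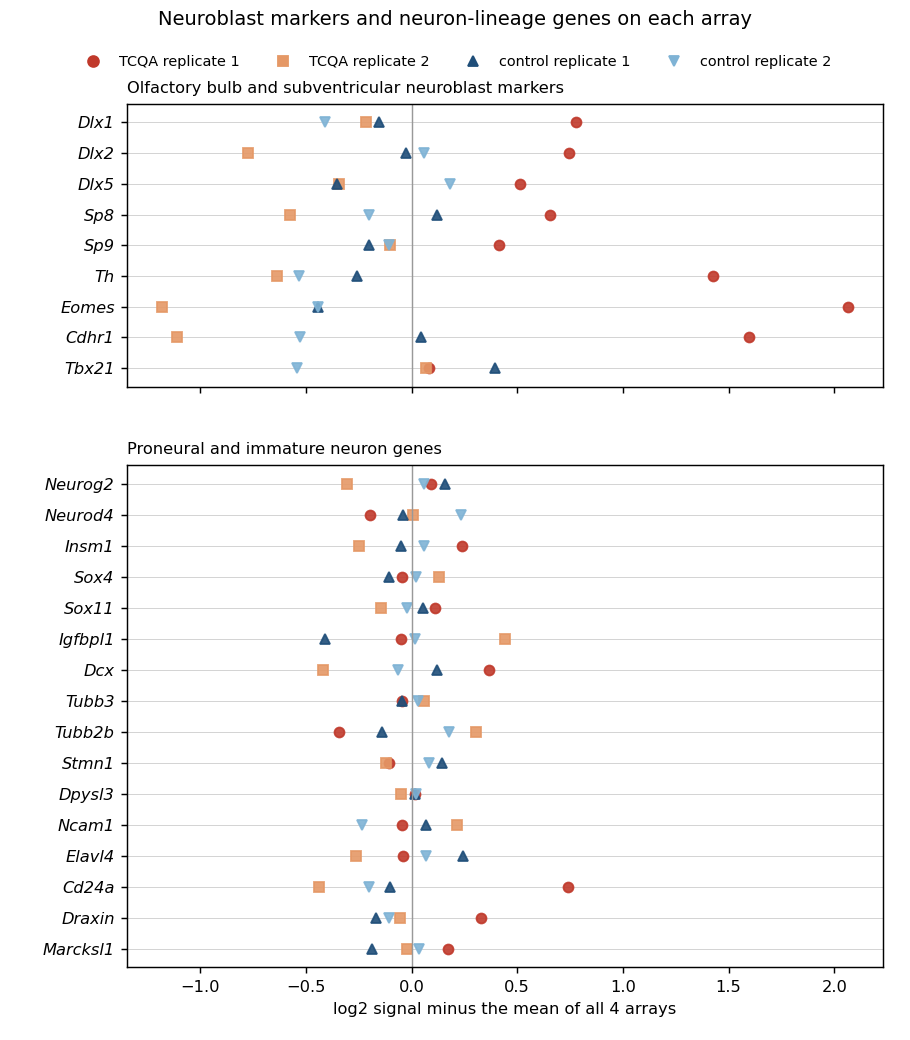
Log2 signal minus the mean of all 4 arrays for 9 markers of the olfactory bulb or of subventricular neuroblasts (top) and for the 16 proneural and immature neuron genes (bottom). TCQA replicate 1 is the highest array for 8 of the 9 markers and, among the genes below, for 6 of 16, Cd24a and Dcx included, while 5 of the 13 immature neuron genes are highest in TCQA replicate 2.

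Proliferation genes showed no shared direction. Of the 6, 2 had a higher mean with TCQA (Mki67 and Pcna) and 4 a lower one, with a median difference of -0.03. Mki67, Top2a, Mcm2 and Cdk1, which mark cells in the cycle, were below the median negative control on all 4 arrays. Pcna and Ccnd2 were above it.

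Mki67, the antigen Ki-67 of all cycling cells, was at 5.39 and 5.38 with TCQA and at 5.09 and 4.77 in control. The TCQA pair coincided above both controls. The difference was 0.45 (95% confidence interval -0.01 to 0.92, limma adjusted p = 0.799), and without any one array it was between 0.29 and 0.61. The other dim genes of dividing cells had lower means with TCQA. Top2a, the topoisomerase of mitotic chromosomes, was at 5.98 and 6.04 with TCQA and at 6.20 and 6.02 in control, a difference of -0.10 (SE 0.18) with overlapping arrays. Cdk1, the mitotic kinase, was at 2.81 and 2.48 with TCQA and at 3.04 and 2.64 in control, a difference of -0.19 (SE 0.22), again with overlap. Mcm2, a subunit of the replicative helicase, differed by -0.05 (SE 0.17).

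Pcna, the sliding clamp of DNA replication and repair, was at 12.91 and 12.36 with TCQA and at 12.31 and 12.56 in control. Its difference of 0.20 (95% confidence interval -0.38 to 0.79) came from TCQA replicate 1, without which it was -0.07. Ccnd2, a cyclin of the G1 phase, was at 10.80 and 10.52 with TCQA and at 10.81 and 10.55 in control, a difference of -0.02 (SE 0.20). In both groups replicate 1 was the higher array by a similar step.

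Genes of late cell cycle phases share promoter elements: CCAAT boxes, bound by NF-Y, and the cell cycle homology region, with the core TTTGAA and a variant core that reads TTCGAA, through which the DREAM complex silences them in resting cells. The 250 bases before the start of Mki67, Top2a and Cdk1 are shown because these 3 genes carry the same elements and their means differed in opposite directions, within the error of each. Matches to these elements on either strand are in capitals, none overlapping another, and the sequences are RefSeq's for GRCm38.p6 at chr7:135716380-135716629, chr11:99024190-99024439 and chr10:69352913-69353162, all on the minus strand.
Mki67: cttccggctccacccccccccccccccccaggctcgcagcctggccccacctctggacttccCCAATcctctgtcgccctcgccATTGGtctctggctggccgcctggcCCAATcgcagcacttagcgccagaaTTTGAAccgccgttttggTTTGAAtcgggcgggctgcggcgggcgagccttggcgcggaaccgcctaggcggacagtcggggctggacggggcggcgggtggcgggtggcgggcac
Top2a: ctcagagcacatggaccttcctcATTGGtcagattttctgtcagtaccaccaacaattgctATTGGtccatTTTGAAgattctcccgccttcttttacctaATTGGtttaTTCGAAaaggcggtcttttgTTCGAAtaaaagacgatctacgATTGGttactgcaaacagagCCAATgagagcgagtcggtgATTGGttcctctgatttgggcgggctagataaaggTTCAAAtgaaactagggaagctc
Cdk1: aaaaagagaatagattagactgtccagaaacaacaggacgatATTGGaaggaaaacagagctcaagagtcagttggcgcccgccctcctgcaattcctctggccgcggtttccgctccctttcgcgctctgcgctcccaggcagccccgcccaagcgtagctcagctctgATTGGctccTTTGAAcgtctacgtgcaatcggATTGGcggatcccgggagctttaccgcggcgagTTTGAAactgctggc
Mki67 and Cdk1 each held 3 matches to CCAAT and 2 to the cell cycle homology cores, and Top2a held 6 and 4. Both kinds of element were present in 4 of the 5 proliferation genes with a promoter in the table, Mcm2 being the other, and Pcna held a CCAAT match alone. Among all 32851 promoters 33.8% held CCAAT, 17.1% a cell cycle homology core and 6.02% both. Among the 21 members with a promoter entry 7 held both in at least 1 of their promoters, a count by gene that cannot be set against these shares of promoters.

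The other genes of the pathway were read from lists of related genes, and 3 of those named below (Btg2, Calb2 and Cdc6) differed by more than any neurogenesis gene above. Among 25 other progenitor and stem cell genes, 15 had a higher mean with TCQA, and the median difference was 0.07. Of these, 4 (16.0%) had an unadjusted p under 0.05 in limma, against 6.24% of all gene probe sets in either direction. Each of the 4 was higher, against 3.38% higher of all. After adjustment over all genes 0 passed. Lfng, which tunes Notch receptors, was at 8.68 and 8.67 with TCQA and at 8.12 and 8.27 in control, a difference of 0.48 (SE 0.17). Thbs4, a matrix protein secreted by astrocytes, differed by 0.49 (SE 0.18), the filament gene Vim by 0.45 (SE 0.18) and the dim Tfap2c, a factor of cortical progenitors, by 0.53 (SE 0.22). Without any one array these 4 differences were between 0.35 and 0.71, but the unadjusted p of Lfng and Vim was under 0.05 in 0 of these 4 cases, that of Thbs4 in 1 and that of Tfap2c in 2. After quantile normalization that of Vim was over 0.05 as well. Vim and Thbs4 are also astrocyte genes, and Vim is a gene of fibroblasts and vessels as well. Meningeal fibroblast markers had a higher mean with TCQA in 10 of 10, with a median difference of 0.42. Of the 10, 3 (30.0%) had an unadjusted p under 0.05 in limma, against 6.24% of all gene probe sets in either direction. The log2 summed signal of these markers was 12.41 and 12.70 in the TCQA arrays and 11.32 and 12.60 in the control arrays. Their part in these differences was not tested.

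Among 16 other proneural and intermediate progenitor genes 6 had a higher mean, with a median difference of -0.07. An unadjusted p under 0.05 in limma was reached by 4 (25%), of which 1 was higher and 3 were lower. Of all gene probe sets 6.24% reached it, 3.38% higher and 2.86% lower. Btg2, an antiproliferative gene of neurogenic divisions that is also an immediate early gene, differed by -2.45 (SE 0.69). Leaving out the first control array gave -1.27 and leaving out the second gave -3.63. Its control arrays were far apart, at 10.30 and 7.93, against 6.73 and 6.60 with TCQA, both of the latter below the median negative control. Neurod2, which stays on in cortical excitatory neurons, differed by -0.50 (SE 0.20) and the Notch ligand gene Dll1, dim on all arrays, by -0.48 (SE 0.18). Hes6, a Notch pathway factor that favours differentiation, was 0.61 higher (SE 0.20), also at a dim level. With 1 array left out, the unadjusted p of Dll1 was under 0.05 in 0 of 4 cases, that of Neurod2 in 1 and that of Hes6 in 2.

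Among 32 other genes of immature neurons 15 had a higher mean, with a median difference of -0.02. An unadjusted p under 0.05 in limma was reached by 2 (6.25%, against 6.24% of all gene probe sets), Calb2 (higher) and Sox12 (lower). Calb2, calretinin, marks young granule neurons of the dentate gyrus and also interneurons and thalamic cells. It was at 11.26 and 10.87 with TCQA and at 9.42 and 9.71 in control, a difference of 1.502 (SE 0.22), while Dcx, expressed in the same young neurons, differed by -0.05. Thalamic neuron markers, a list that holds Calb2 itself, had a higher mean with TCQA in 6 of 8, with a median difference of 0.62. Of the 8, 2 (25%, against 6.24% of all gene probe sets) had an unadjusted p under 0.05 in limma, Calb2 among them. The log2 summed signal of the 8 was 13.44 and 13.88 in the TCQA arrays and 12.59 and 13.22 in the control arrays. The part of thalamic RNA in the Calb2 difference was not tested. Sox12, the third SoxC factor, dim on all arrays, differed by -0.54 (SE 0.18), against -0.03 for Sox11 and 0.09 for Sox4.

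Among 34 other proliferation genes 20 had a higher mean, with a median difference of 0.03, and 25 were below the median negative control on all arrays. Only Cdc6 had an unadjusted p under 0.05 in limma among the 34 (2.94%, against 6.24% of all gene probe sets). It is the factor that loads the replicative helicase, and its signal was 4.16 and 4.54 with TCQA and at 5.76 and 5.12 in control, a difference of -1.09 (SE 0.27). It was dim throughout, and the helicase subunit Mcm2 differed by -0.05. For every gene named from these 4 lists the limma adjusted p was 0.787 or higher.

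**Figure D4:**
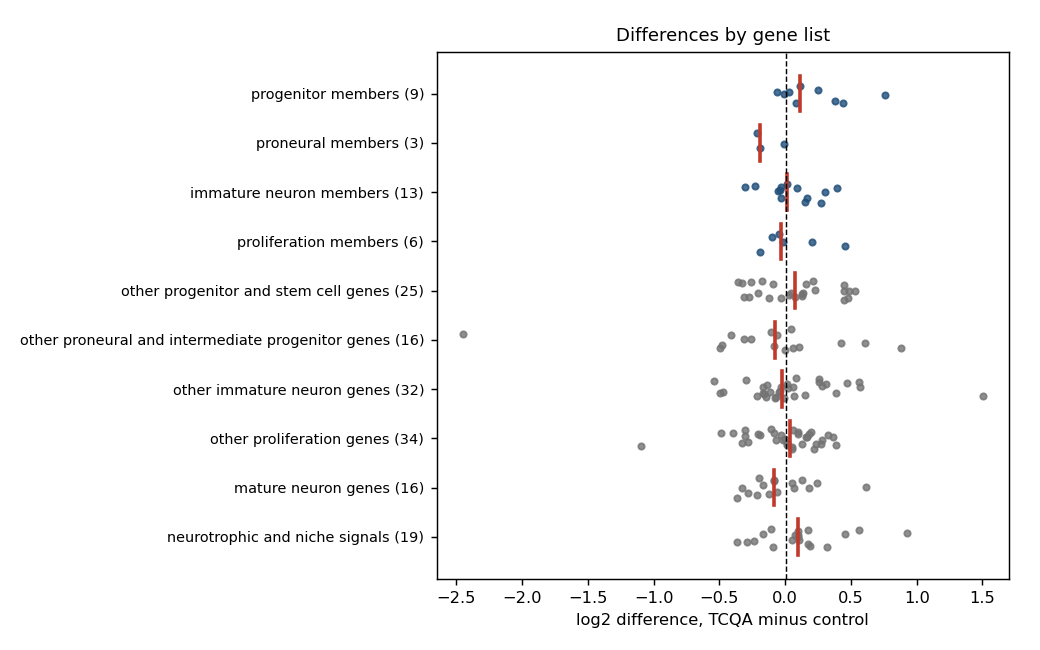
Log2 difference of each gene, TCQA minus control, by list, with the number of measured genes in parentheses; red bars are list medians and the dashed line is the median over all gene probe sets, 0.01. The 4 sets of neurogenesis genes (blue) have medians between -0.19 and 0.11.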

How the data were processed

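Brain cortex RNA was measured on 4 Clariom S arrays, 2 per group, grouped as titled. Whether each array stands for its own mouse is not stated, so the p-values reflect only the spread of these samples, possibly technical. Per the labels' protocols, the authors computed the deposited log2 signals by SST-RMA (Transcriptome Analysis Console 4.0.2), which normalizes arrays to a common distribution, so a shift common to most genes would not show. The annotation's genome build is not stated. Of 22206 gene probe sets, 19572 could be given a symbol from the platform annotation and its gene IDs. The 6640 control probe sets stayed out of the tests.

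Groups were tested on the deposited log2 values in limma 3.58.1 (R 4.3.3; lmFit and eBayes, two-sided, TCQA minus control, 2 residual and 4.23 prior degrees of freedom), with Benjamini-Hochberg adjustment over all 22206 gene probe sets. The procedure was checked on simulated data with the same noise for every gene and log2 shifts of 1.5 and 3. These shifts are larger than any member difference, so the check does not show how well differences of the members' size are found. Standard errors had a median of 0.20 on the log2 scale, since few arrays limit the precision. The members and lists were chosen with earlier results of these data known. Named were all members, up to 4 genes per related list by unadjusted p, and, where a marker list is cited by example, 1 or 2 of its brightest genes, with Ttr. Array values were given for members whose groups did not overlap, with an unadjusted p under 0.05, or in a fixed set of markers, and for Cd24a, Sox1, Neurog2, Top2a, Cdk1 and Ccnd2, added after values were seen. Alternatives were a replicate block, quantile normalization, median centring, a filter on dim probe sets, other variance moderation, control probe sets kept in, and each array left out.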

Additional observations from a re-analysis of the deposited data

How the results depend on the processing

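Replicate numbers showed no sign of pairing (the deviations of same-numbered arrays from their group means correlated at 0.05), and with a replicate block the counts were 1 member at an unadjusted p under 0.05 and 92 probe sets past the criterion. Without 1 array, 14 of the 31 members changed sign in at least 1 case and 17 did not. The ranges were -0.16 to 0.12 for Ccnd2, -0.29 to 0.89 for Cd24a, -0.39 to 0.0071 for Cdk1, -0.45 to 0.34 for Dcx, -0.25 to 0.23 for Insm1, -0.10 to 0.0042 for Mcm2, -0.16 to 0.037 for Msi1, -0.10 to 0.15 for Nr2e1, -0.073 to 0.48 for Pcna, -0.31 to 0.29 for Sox1, -0.16 to 0.092 for Sox11, -0.030 to 0.25 for Sox3, -0.36 to 0.29 for Tubb2b and -0.036 to 0.064 for Tubb3, which was -0.013 after quantile normalization. The class medians ranged from 0.023 to 0.056 for immature neuron genes, 0.083 to 0.23 for progenitor, -0.07 to 0.05 for proliferation and -0.25 to -0.013 for proneural genes. Members at an unadjusted p under 0.05 ranged from 1 to 2, probe sets past the adjusted threshold from 0 to 4 (4 without TCQA replicate 1) and those past the criterion from 160 to 291, against 83 with all arrays. Among probe sets at or above the median signal no proneural gene was left, and of the proliferation genes only Pcna and Ccnd2. The medians there were -0.036 for immature neuron genes and 0.093 for these 2 proliferation genes. With that filter 36 probe sets met the criterion, since fewer were tested. Of 17 members 2 (11.8%, Fabp7 and Msi2) had an unadjusted p under 0.05 in limma, against 8.34% of all tested. With an intensity trend 3 members did (9.68%, Fabp7, Msi2 and Stmn1, against 6.87% of all), with no moderation 2 (6.45%, Msi2 and Stmn1, against 6.09%), when 25 probe sets met the criterion, and with control probe sets kept in 0, against 4.26%. The cause was not tested. With the trend, no moderation or control probe sets kept in, the unadjusted p of Dll1, Neurod2 and Tfap2c was over 0.05. With no moderation, 9 of the named genes outside the members moved from under 0.05 to over it. Btg2, Cdc6 and Bmp4 were among them, while Calb2 stayed under it. Members have 1 probe set each, so averaging probe sets changes nothing.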

Other observations

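Signals that the neurogenic niche sends to progenitors were read as a separate list. Of 19 measured, 13 had a higher mean with TCQA, with a median difference of 0.10. An unadjusted p under 0.05 in limma was reached by 2 (10.5%), both higher, against 6.24% of all gene probe sets, 3.38% higher. Bmp4, which holds adult stem cells quiescent and favours glial fate, was at 5.94 and 6.67 with TCQA and at 5.29 and 5.47 in control. It is also a gene of meningeal cells, whose markers are given above. It was dim on all arrays, and its difference of 0.93 (SE 0.27) was 0.56 without TCQA replicate 2 and 1.29 without TCQA replicate 1. Fgf2, a mitogen of neural stem cells made by astrocytes, was at 7.47 and 7.63 with TCQA and at 7.03 and 6.95 in control, a difference of 0.56 (SE 0.18). Its control arrays were below the median negative control. Of the other genes of the list, Lif differed by -0.37 (SE 0.18) and Wnt3 by 0.45 (SE 0.25), both dim. None passed limma with adjustment over all genes (0 of 19).

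Mature neuron genes, the end point of the lineage, had a higher mean with TCQA in 6 of 16, with a median difference of -0.08. Snap25, a synaptic vesicle fusion protein, was 0.62 higher (SE 0.18), while the surface glycoprotein gene Thy1 differed by -0.36 (SE 0.17), Camk2a by -0.28 (SE 0.17) and Slc17a7 by -0.33 (SE 0.22). All 16 were above the median negative control on every array.

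Dentate gyrus granule cell markers, relevant because that region makes new neurons, had a higher mean with TCQA in 6 of 8, with a median difference of 0.15 and 0 of 8 at an unadjusted p under 0.05 in limma. The log2 of their summed signal was 13.77 and 13.40 in the TCQA arrays and 13.05 and 13.65 in the control arrays, so the groups overlapped. C1ql3, the brightest, which carried most of that sum, was at 13.59 and 13.17 with TCQA and at 12.76 and 13.48 in control. Of the 8 markers, 5 were below the median negative control on all arrays.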
